A study of Mus musculus with 4 samples.

Results

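The transcripts described here are the array probes that still carried a RIKEN clone name and that differed at least 2-fold between back skin lacking epithelial Fgf18 and wild-type back skin. They were chosen by the measured difference itself: a probe whose gene name ended in Rik was taken when both arrays of at least 1 group were well above background, when the group means differed by at least 1 log2 unit, and when both arrays of one group lay beyond both arrays of the other. By this rule 85 probes of 78 gene names were found among 3771 RIKEN-named probes and 41174 probes in all. Of these, 60 were higher and 25 were lower in the Fgf18-deleted skin. Among the 1756 RIKEN-named probes bright enough to be kept, 4.84% thus met the rule (3.42% higher, 1.42% lower), against 3.78% of all 26070 kept probes (2.68% higher, 1.1% lower). Because the rule used this contrast, nothing is read from these shares, and the members' values below are a description with no test.

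RIKEN names were given to mouse full-length cDNA clones whose genes had no other name, and many have since been renamed or found to be non-coding. In skin, a large share of transcript differences follows the hair cycle, in which a resting follicle (telogen) regrows its lower part (anagen), where matrix cells divide and build the hair shaft and the inner root sheath. Keratins form the filaments of the shaft, and keratin-associated proteins, encoded in dense gene clusters, form the matrix around them. Fgf18 is a secreted fibroblast growth factor made by resting follicles.

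The study asked which genes depend on Fgf18 in telogen skin. The cKO group was male mice aged 42 days with a conditional Fgf18 knockout in epithelial cells positive for keratin 5, and the WT group was C57BL/6 males of the same age; the strain label was C57BL/6 for both. The tissue was dorsal skin at full thickness, with follicles labelled as telogen. PolyA RNA of 3 mice per genotype was combined into 1 pool and run on duplicate one-colour arrays. The labels do not name the Cre line or the deleted part of the gene, nor do they say that the controls carried Cre or a floxed allele. With 1 pool per genotype, the 2 arrays of a group are technical duplicates, and the spread between mice was not measured. In whole skin, fewer cells of a type and less RNA per cell cannot be told apart.

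All levels below are the scanner's processed signal, in arbitrary intensity units, or its log2 after division by the 75th percentile of the array. That percentile was 1403 and 1453 for cKO and 1271 and 1316 for WT, and 62.1% to 69.1% of spots were well above background. No spot was saturated. The Fgf18 probe read 5096 and 5293 in cKO and 5748 and 6076 in WT, a log2 difference of -0.33, and because the deleted part is not given it does not check the labels. Hair shaft markers were far higher in the cKO pool, although its follicles were labelled telogen: 18 of 18 measured markers were higher by the same 2-fold rule, with a median log2 difference of 6.44 against -0.05 over all genes. For inner root sheath markers 9 of 11 were higher (median 5.55), for cell cycle genes 9 of 16 (median 1.05) and for melanocyte genes 5 of 11 (median 0.93). Over all genes the rule was met upward by 3.18% and downward by 1.08%. Among lists of other tissues, none of 20 skeletal muscle markers passed in either direction (median -0.56), while 1 of 12 adipocyte markers was lower (Gpd1, -1.26, median of the list -0.34) and 1 of 12 immune markers was higher (Cd4, not well above background in WT; median -0.10). No marker of sebaceous gland, basal epidermis, differentiated epidermis, fibroblast or endothelium passed. The part of these cell types in the results below was not tested.

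**Figure D1:**
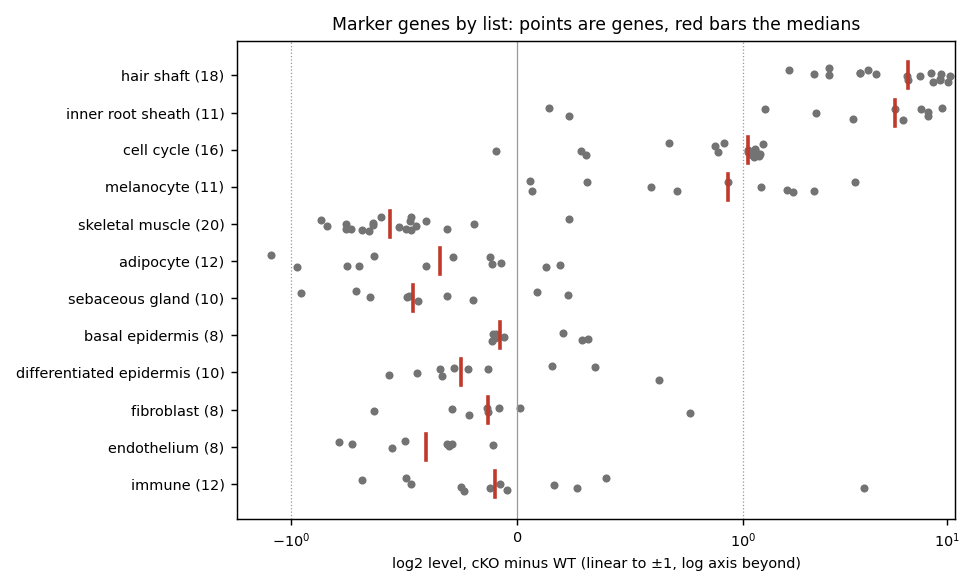
Log2 level in cKO minus WT (x axis, linear to ±1 and logarithmic beyond) for the marker genes of 12 cell types or processes (y axis, number measured in parentheses). Points are genes, and red bars are list medians, which reach 6.44 for the hair shaft and lie at -0.56 for skeletal muscle.

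The sequences that matter most for reading the largest difference are those of the probe of 1110025L11Rik, because the gene sits in a cluster of near-identical keratin-associated protein genes. Over 50 aligned bases this probe and that of Krtap6-1, a keratin-associated protein gene of the same cluster, were identical at 49. A stretch of 30 bases that ends at the only difference, with that base in capitals, reads as follows on the scanner files' probes, 5′ to 3′.

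1110025L11Rik: tctctctatggctgtggctatggatgtggT
Krtap6-1: tctctctatggctgtggctatggatgtggC

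The longest run without a difference was 45 bases, so signal on either probe can include RNA of the other gene. A shared run of 18 bases also linked the 1110025L11Rik probe to that of Krtap6-3. In all, 6 of the 85 probes shared a run of at least 16 bases with a probe of another gene.

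The brightest and most different transcript was 1110025L11Rik, a protein-coding gene on chromosome 16 whose probe lies at chr16:89063975-89064034 on the minus strand of mm9, the build of the scanner files. Its signal was 173284 and 175696 in cKO, against 98.4 on both WT arrays. The groups were far apart, at 10.65 log2 units, while duplicates differed by at most 0.05. With normexp background correction and quantile normalization the difference was 9.98. All 7 other genes with a probe within 100 kb were kept and were higher in cKO. Of those measured on all WT arrays, Krtap22-2 differed by 10.86 log2 units, Krtap6-1 by 10.45 and Krtap6-3 by 8.48, while Krtap6-5, not well above background in WT, was at least 692-fold higher. These belong to the keratin-associated families rich in glycine and tyrosine.

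A second gene of the same chromosome, 2310061N02Rik, was much dimmer. Its signal was 76.7 and 103.4 in cKO and 6.8 and 22.7 in WT, where it was not well above background, so it was at least 2.18-fold higher in cKO. The duplicate WT arrays differed by 1.68 log2 units, slightly more than the 1.66 that separated the closest arrays of the 2 groups. Under normexp and quantile normalization its difference was 0.95 and no longer met the rule. Its neighbours Krtap13-1 and Krtap26-1, not well above background in WT, were at least 146-fold and at least 111-fold higher. Krtap24-1, above background on 1 WT array, differed by 4.03 log2 units. These were 3 of the 4 kept genes within 100 kb. The other kept gene, 2310079G19Rik, differed by 0.58 and did not meet the rule. Of the 7 genes in that range, Krtap13, 2310057N15Rik and 2310034C09Rik were not well above background on any array.

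Since these members lay beside genes of the hair shaft, the 250 bases before their RefSeq starts are shown with those of Pinlyp, a member elsewhere in the genome that was also strongly higher. They come from the RefSeq promoter table of GRCm38.p6, each on the minus strand, at chr16:89064003-89064252, chr16:88707963-88708212 and chr7:24546006-24546255 in the order given. Capitals mark the exact letters TATAAA, a core promoter element.

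1110025L11Rik: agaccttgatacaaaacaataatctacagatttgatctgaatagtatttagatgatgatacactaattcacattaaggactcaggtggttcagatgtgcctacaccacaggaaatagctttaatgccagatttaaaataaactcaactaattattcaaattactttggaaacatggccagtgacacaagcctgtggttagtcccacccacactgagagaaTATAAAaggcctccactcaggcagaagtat
2310061N02Rik: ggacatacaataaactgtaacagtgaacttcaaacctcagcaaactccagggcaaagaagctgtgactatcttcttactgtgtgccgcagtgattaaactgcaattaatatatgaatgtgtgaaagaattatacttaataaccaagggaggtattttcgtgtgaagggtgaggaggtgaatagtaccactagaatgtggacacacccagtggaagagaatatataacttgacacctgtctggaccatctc
Pinlyp: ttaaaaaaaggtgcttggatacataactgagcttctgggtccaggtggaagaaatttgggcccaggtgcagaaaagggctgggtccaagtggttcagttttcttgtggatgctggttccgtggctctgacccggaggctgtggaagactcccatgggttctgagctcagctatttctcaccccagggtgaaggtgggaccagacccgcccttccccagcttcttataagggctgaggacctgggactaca

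TATAAA began 30 bases before the start of 1110025L11Rik and was not among the letters of the other windows. Only this exact run was searched, so related forms in those windows were not counted. Searched on both strands of the 300-base promoters, TATAAA was held by 4 of 42 promoters of higher members (9.52%), 3 of 21 promoters of lower members (14.3%) and 13.6% of all 32851 promoters. The TCF/LEF motif, the target of the nuclear partners of Wnt signalling, was searched as CTTTGAA with its variant CTTTGAT, and also as CTTTGTA with its variant CTTTGTT. It was held by 4 of 42, 3 of 21 and 16.9%. The motifs do not overlap in letters. The shares of the higher members lay below that of all promoters for both motifs.

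The 4 members from a neonatal skin library whose names begin with A030 formed a cluster on chromosome 1 with some of the widest differences. A030005L19Rik, whose probe lies at chr1:82910557-82910616, had signals of 8194 and 8886 in cKO and 281.3 and 278.6 in WT, a log2 difference of 4.79. A030014E15Rik had 7056 and 7291 in cKO and 47.8 and 15.4 in WT, a difference of 7.91, with the lower WT value not well above background. For both genes every cKO array was far above every WT array, although the WT duplicates of A030014E15Rik differed by 1.69 log2 units.

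A030003K21Rik read 3823 and 4006 in cKO and 7.2 and 8.6 in WT. A030005K14Rik read 3221 and 3482 in cKO and 7.5 and 8.8 in WT. Neither was well above background on a WT array, and they were at least 95.6-fold and at least 81.8-fold higher in cKO. Under normexp and quantile normalization the 4 genes differed by 4.52 (A030005L19Rik), 6.07 (A030014E15Rik), 5.70 (A030003K21Rik) and 5.56 (A030005K14Rik) log2 units. None of the 4 was in the RefSeq table under its name.

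Between the outer probes of this cluster, 144.7 kb apart, and just past them lay 3 other genes that were higher. Gm7544 differed by 8.80 log2 units. Krtap28-10 and Krtap28-13, not well above background in WT, were at least 45.2-fold and at least 204-fold higher, the latter with its probe 2863 bases from that of A030005K14Rik. The thiamine transporter gene Slc19a3 lies among them. Its 2 probes were not kept, with signals of 12.8 to 29.1 or 9.1 to 21.8 over the arrays. On the outer sides, the probes of Agfg1 differed by -0.25 and 0.11 and that of the chemokine gene Ccl20 by -0.11. The higher signals were therefore bounded by flanking genes with small differences.

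**Figure D2:**
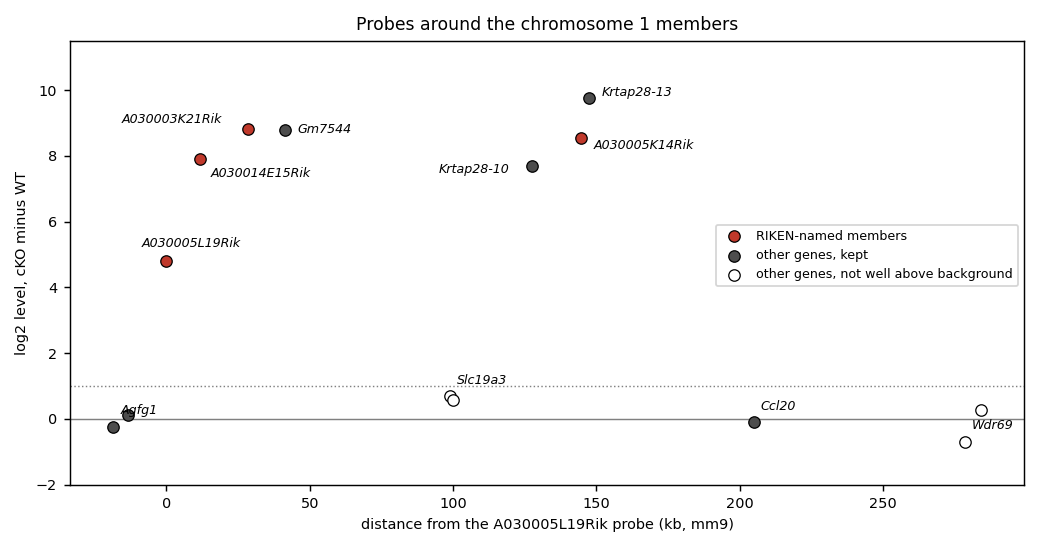
Log2 level in cKO minus WT (y axis) of each probe around the chromosome 1 members, by distance in kb from the probe of A030005L19Rik (x axis, mm9). Red points are RIKEN-named members, dark points other kept genes and open points genes not kept; the 7 points above the dotted line at 1 lie between 4.79 and 9.75, of which Krtap28-10, Krtap28-13, A030003K21Rik and A030005K14Rik are not well above background in WT and have only a lower bound, and Agfg1 and Ccl20 on the outer sides lie near 0.

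Other members also lay near genes that were higher. Dlx4os, a non-coding RNA from the strand opposite the homeobox gene Dlx4, read 241.4 and 280.3 in cKO and 48.4 and 55.1 in WT, a log2 difference of 2.19. Its neighbour Dlx3, a regulator of hair formation, was higher by 1.75, and Dlx4, not well above background in WT, was at least 2.78-fold higher.

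The lncRNA A830036E02Rik read 617.3 and 616.0 in cKO and 250.7 and 255.7 in WT (1.14), and the inner root sheath keratin genes Krt27 and Krt28 within 100 kb were higher by 8.09 and 5.55. Krt26, not well above background in WT, was at least 56.0-fold higher. These were 3 of the 6 kept genes in that range. The others lay nearer and were not higher: Krt20 differed by -0.42, Krt10 by -0.28 and -0.26 on its probes, and Krt23 by -0.36. 4833417J20Rik read 270.8 and 291.1 in cKO and 97.8 and 119.8 in WT (1.23). The nearest kept probes, of the fatty acid oxidation gene Cpt1a, were higher by 1.05 and 1.27. The duplicates of both members differed by at most 0.24. A830036E02Rik (0.93) and 4833417J20Rik (0.86) missed the rule under normexp and quantile normalization.

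Leaving the members themselves out, 248 kept probes lay within 100 kb of the higher members. Of these, 23 (9.27%) were higher by the same rule, against 2.68% of all 26070 kept probes, and 1 was lower. They belonged to 21 genes, 12 of them named Krt or Krtap, beside 10 members, so the share rests on a few clusters. Around the lower members, 4 of 125 kept probes (3.2%) were higher and 2 (1.6%, against 1.1% of all) were lower. The lower pair, Gad2, at least 4.09-fold lower and not well above background in cKO, and Rn28s1 (-1.03), lay near 1700092C17Rik.

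Among members with a current name, Pinlyp had the widest difference. The gene encodes a secreted protein with a phospholipase A2 inhibitor and Ly6/PLAUR domain. One probe read 22129 and 23895 in cKO and 873.4 and 886.8 in WT, and the other 6086 and 6140 in cKO and 246.7 and 249.7 in WT. The log2 differences, 4.56 and 4.48, were close to each other and far above the largest duplicate gap, 0.06. The probes span 284 and 2397 bases of mm9, more than their own length, so each crosses at least 1 intron. 2410006F04Rik, not named in the table, read 3518 and 3792 in cKO and 129.2 and 153.9 in WT (4.55).

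D730001G18Rik on chromosome 15 read 1399 and 1446 in cKO and 140.2 and 142.4 in WT, a difference of 3.19. Mroh4, a HEAT-repeat protein gene on the same chromosome, read 75.1 and 98.0 in cKO and 8.9 and 10.5 in WT, or at least 2.10-fold higher. Tescl, a relative of the calcium-binding protein tescalcin, read 219.1 and 241.4 in cKO and 11.7 and 8.3 in WT, or at least 5.62-fold higher. Of these 3 genes, only D730001G18Rik was well above background in WT.

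Dim members followed with bounds. The uroplakin-related gene Upk3bl was at least 3.50-fold higher by one probe (140.2 and 146.1 against 12.1 and 15.1) and at least 2.98-fold by the other (127.2 and 117.0 against 19.1 and 19.4). 6030422H21Rik was at least 3.42-fold higher, with 140.7 and 156.3 against 37.6 and 38.6. Plekhd1, with a pleckstrin homology domain, Vxn (vexin) and Igsf23, of the immunoglobulin superfamily, were at least 1.65-fold, 1.15-fold and 1.11-fold higher, each with every array below 75 units. The rule was no longer met under normexp and quantile normalization by Mroh4 (0.87), Plekhd1 (0.74), Vxn (0.86) and Igsf23 (0.48). That setting also shrank, without ending the call, the differences of Tescl (to 1.79), Upk3bl (to 1.34 and 1.08), 6030422H21Rik (to 1.08), Cracd (to 1.55) and Dlx4os (to 1.35).

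Cracd, a regulator of actin capping, and Arhgef26 each had 1 cKO array far above the other. Cracd read 525.7 and 41.1 in cKO and 14.8 and 10.4 in WT, so its duplicates differed by 3.73 log2 units. It still met the rule with either cKO array left out, by 1.56 log2 units without cKO replicate 1. That value is not a bound, since neither WT array was well above background. The remaining cKO array lay at -5.14, close to the lowest WT levels called well above background, -5.25 and -5.0. The second Cracd probe, not kept, differed by -0.11. Arhgef26 read 412.1 and 37.4 in cKO and 30.2 and 26.4 in WT. Without cKO replicate 1, Arhgef26 differed by 0.24 and did not meet the rule, and its second probe, at 441.1 and 426.8 against 347.0 and 360.9, differed by 0.15. The high value of each gene was on the first cKO array.

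Members with roles in the cell surface and in metabolism were mostly of moderate size. Cemip, which binds hyaluronan and is needed for its breakdown, was higher by 3 probes. The brightest of them read 467.4 and 527.1 in cKO and 166.0 and 159.9 in WT (1.46). The others were not well above background in WT and were at least 3.05-fold and at least 2.66-fold higher, though under normexp and quantile normalization they had 0.96 and 0.76, short of the rule. Sptssb, a small subunit of the enzyme that starts sphingolipid synthesis, read 151.7 and 134.4 in cKO and 50 and 25.7 in WT (1.85). Stra6l, a retinol transporter, read 133.9 and 139.5 in cKO and 43.3 and 57.5 in WT (1.31).

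The aldehyde dehydrogenase gene Aldh3b3 differed by 1.41 on one probe and by 0.99 on another. Elapor1, an endosome and lysosome protein, differed by 1.37 and Arxes2, named for its expression in adipocytes, by 1.10. Under normexp and quantile normalization, Sptssb (0.82), Stra6l (0.70), Aldh3b3 (0.81), Elapor1 (0.63) and Arxes2 (0.99) fell short of the rule. Arxes2 was the brightest of these 5 genes, at 989.2 and 997.2 in cKO against 429.4 and 411.0 in WT. Its difference had the opposite sign to the median of the adipocyte list.

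Lrmda, named for its part in melanocyte differentiation, read 1051 and 1032 in cKO and 286.8 and 299.3 in WT, a log2 difference of 1.69. It met the rule under all 11 alternatives. Beside it, the 5 higher genes of the melanocyte list were Slc45a2 (1.77), Slc24a5 (1.64), Tyrp1 (1.23), Trpm1 (3.54, with 1 WT array not well above background) and Oca2, which was not well above background in WT. The measured genes of the list that did not meet the rule lay between 0.06 (Mitf and Sox10) and 0.93 (Mlana), with Kit at 0.31. Under normexp and quantile normalization 3 of the 11 measured genes met it. The summed scaled level of the 11 measured genes was 16.7 and 16.8 in cKO and 10.6 on both WT arrays.

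A further set of higher members was grouped after their values were seen. They have known roles in cell division, except the pseudogene 2700099C18Rik, listed for a probe run shared with a kinetochore gene. Pclaf, a factor that binds the replication clamp PCNA, was the brightest, with 3286 and 3402 in cKO against 1364 and 1437 in WT. Its difference, 1.11, was many times its duplicate gap of 0.03. Ska3, part of the complex that ties kinetochores to spindle microtubules, read 275.1 and 288.6 in cKO and 103.5 and 105.4 in WT (1.29). Ticrr, needed to start DNA replication, read 80.1 and 90.2 in cKO and 18.3 and 56.5 in WT (1.26).

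Parpbp, which restrains homologous recombination, was higher by 1.15 and 1.06 on its 2 probes. Ccsap, a centriole and spindle protein, was at least 1.48-fold higher. The pseudogene 2700099C18Rik differed by 1.31, but 25 bases of its probe run are shared with the probe of Ndc80, a kinetochore gene that itself differed by 1.07. Without WT replicate 1, Ticrr (0.47), Ccsap (0.81) and 1 probe of Parpbp (0.80) missed the rule, and without WT replicate 2 so did the other (0.88). Under normexp and quantile normalization Ska3 (0.91), 2700099C18Rik (0.88), Ticrr (0.47), Ccsap (0.49) and both Parpbp probes (0.48 and 0.56) missed it. Of these 6 genes, Pclaf met it in all 11 alternatives. The cell cycle list, which holds none of them, summed to 44.6 and 43.8 in cKO and 25.1 and 25.9 in WT.

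Of the remaining renamed genes, Mtcl1, a microtubule-crosslinking protein gene, read 394.2 and 419.5 in cKO and 102.9 and 102.3 in WT on one probe (1.84) and differed by 1.05 on the other, or 0.87 without WT replicate 1. Crocc2, of the rootletin family, and H2al1m, a histone variant gene of the testis, were dim, at least 1.19-fold and at least 1.84-fold higher. Brd8dc differed by 1.02 and Timmdc1, an assembly factor of respiratory complex I, by 1.02. Another Timmdc1 probe differed by -0.09. Crocc2 had 0.71 without WT replicate 2, Timmdc1 0.87 without WT replicate 1 and Brd8dc 0.98 without cKO replicate 2. The second Mtcl1 probe (0.63), Crocc2 (0.45), H2al1m (0.52), Brd8dc (0.62) and Timmdc1 (0.75) missed the rule under normexp and quantile normalization. 4930438A08Rik, a bright protein-coding gene without another name, read 7011 and 7415 in cKO and 2642 and 2768 in WT (1.27). C230098O21Rik had 1806 and 1861 against 750.0 and 787.8 (1.11).

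Lower members were fewer and lay closer to the threshold. The limit for a call above background was lower on the cKO arrays, which let dim probes in more easily through cKO. Of the kept RIKEN-named probes, 73 were well above background on no WT array and 4 on no cKO array. The part of this limit in the counts was not tested. The median difference of the lower members was -1.25 and 20 of 25 lay within 1.5 log2 units of 0, against a median of 1.42 for the higher members. Of these, 2010003K11Rik, Lncbate1 and a probe of Zfp945 met the rule in all 11 alternatives. 2010003K11Rik, a protein-coding gene, read 517.1 and 497.8 in cKO and 1039 and 1147 in WT (-1.25). Lncbate1, a non-coding RNA known from brown adipocytes, read 185.7 and 202.8 in cKO and 462.5 and 469.9 in WT (-1.41). The adipocyte list beside it summed to 531 and 537 in cKO and 586 and 609 in WT, and Gpd1 was its only lower gene.

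Kbtbd13, a kelch protein of skeletal muscle, read 156.8 and 153.2 in cKO and 294.1 and 306.0 in WT (-1.10). With normexp and quantile normalization its difference was -0.86. The summed level of the 20 muscle markers was 1710 on both cKO arrays and 2250 and 2390 in WT. Kbtbd13 thus differed in the same direction as the sum of the muscle list, whose own genes all stayed within the 2-fold rule.

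A530016L24Rik read 494.2 and 505.7 in cKO and 959.5 and 954.0 in WT (-1.08). 4930415O20Rik read 116.7 and 122.9 in cKO and 229.3 and 230.8 in WT (-1.08). 2310002L09Rik, the brightest lower member, read 3659 and 3805 in cKO and 6626 and 6949 in WT (-1.01). Its second probe, at 724.7 and 669.6 against 1076 and 1143, differed by -0.81. On the member probes of these 3 genes the duplicates differed by at most 0.06 log2 units, and all sat close to the 2-fold limit.

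Duplicates disagreed in several of the widest lower differences. E330013P08Rik read 9.2 and 9.8 in cKO and 46.2 and 683.7 in WT, or at least 7.90-fold lower in cKO. Its WT duplicates were 3.84 log2 units apart, so this bound rests largely on the second WT array. Without WT replicate 2 the difference was -2.45, which is not a bound because neither cKO array was well above background. WT replicate 1 lay at -4.78, against lowest cKO levels called well above background of -5.39 and -6.3. Fam234b read 50.7 and 47.4 in cKO and 59.1 and 624.3 in WT (-2.11), and without WT replicate 2 its difference was -0.44. The 3 other kept probes of Fam234b differed by -0.31, 0.02 and 0.03. The high value was on the second WT array for both genes.

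The same array held the high value of 9330133O14Rik, at 80.7 and 77.3 in cKO and 102.6 and 377.0 in WT (-1.46). It also held that of A930018P22Rik, at 57.5 and 50.6 in cKO and 80 and 234.1 in WT (-1.49). Without WT replicate 2 their differences were -0.55 and -0.74, short of the rule. 4930503H13Rik, a pseudogene on the X chromosome, was high on the first WT array instead, at 455.5 against 198.1 on the second, with 130.4 and 116.9 in cKO (-1.43). Without WT replicate 1 it differed by -0.80.

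Of the lower members not well above background in cKO, Nt5el, a relative of ecto-5′-nucleotidase, read 19.4 and 4.2 in cKO and 127.6 and 44.9 in WT, at least 3.36-fold lower. P2ry10b, a receptor gene of the purinergic family, read 19.3 and 16.2 in cKO and 50.6 and 58.4 in WT, at least 2.41-fold lower. The lncRNA 4930452A19Rik had 8.3 and 5.0 in cKO and 77.2 on the first WT array. Its spot on the second WT array was dropped as an outlier, so its bound, at least 3.49-fold lower, rests on 1 WT array. Pdzph1, with PDZ and pleckstrin homology domains, differed by -1.38, the lncRNA 3930402G23Rik by -1.09 and the tripartite-motif gene Trim30b by -1.13, the last with 1 cKO array not well above background. Without WT replicate 2, 3930402G23Rik had -0.93 and Trim30b -0.70, and without cKO replicate 1 Trim30b had -0.86.

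Background correction weighed on the lower members as well. Under normexp and quantile normalization the differences of E330013P08Rik, Fam234b, Nt5el and 4930452A19Rik were -1.88, -1.26, -1.12 and -1.03, each smaller but still past the rule. Those of 9330133O14Rik (-0.95), A930018P22Rik (-0.85), P2ry10b (-0.53), Pdzph1 (-0.73), 3930402G23Rik (-0.48) and Trim30b (-0.45) were not. A530016L24Rik (-0.97), 2310002L09Rik (-0.95) and 4930415O20Rik (-0.72) also fell short.

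**Figure D3:**
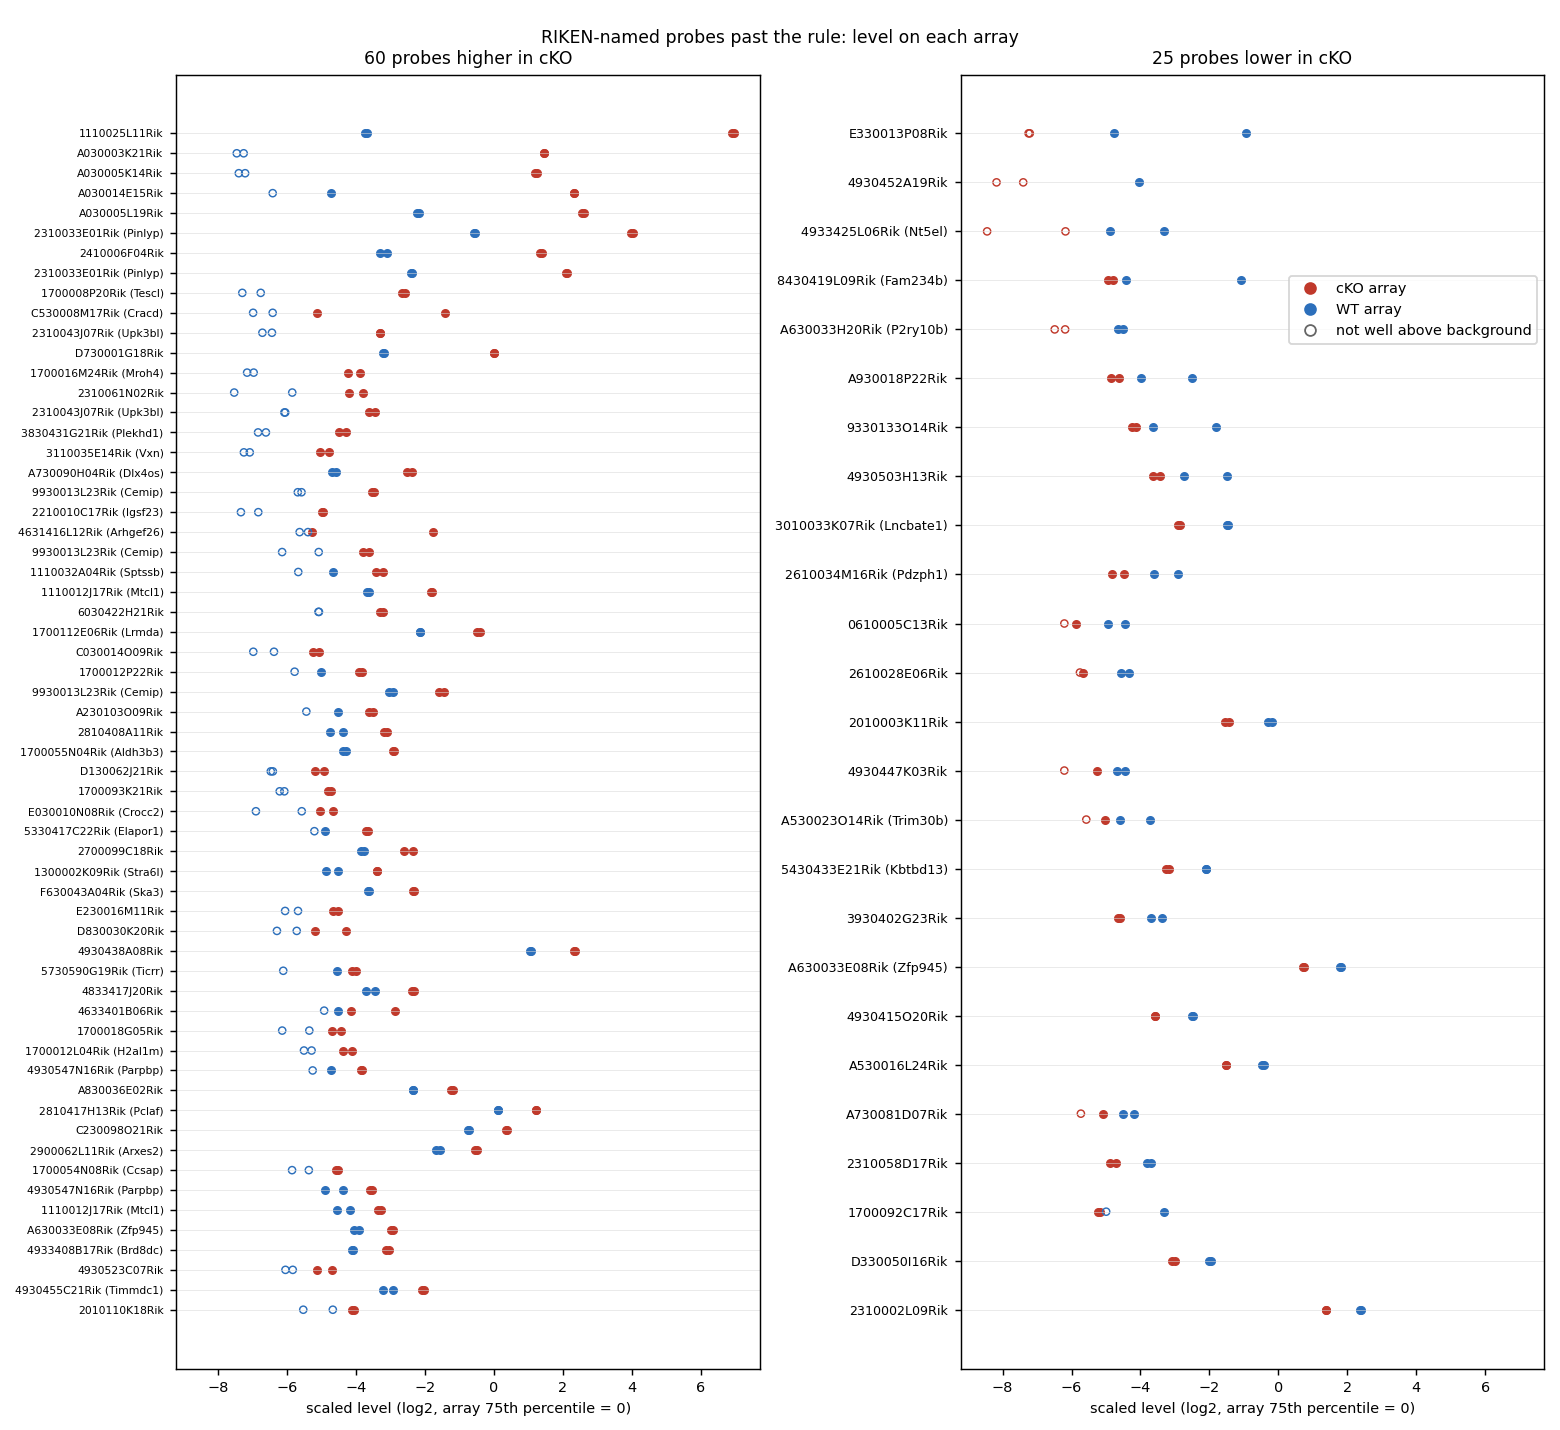
Scaled log2 level (x axis, 0 is the 75th percentile of the array) of the 60 higher (left) and 25 lower probes (right) on each of 2 cKO arrays (red) and 2 WT arrays (blue). Probes are ordered by the size of the difference, current symbols stand in parentheses, and open circles mark spots not well above background, as on both WT arrays for 26 higher probes.

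The gene Zfp945, a zinc finger protein still labelled A630033E08Rik on the array, was the only one with members in both directions. Its bright probe, at chr17:22989423-22989481 on mm9, read 2348 and 2375 in cKO and 4511 and 4565 in WT (-1.09). A dimmer probe at chr17:22986534-22986593 read 182.6 and 184.4 in cKO and 76.3 and 86.3 in WT (1.03). Another kept probe read 507.0 and 525.2 in cKO and 324.9 and 319.7 in WT (0.54). Duplicates of the 3 probes differed by at most 0.13 log2 units, so the probes disagreed beyond the spread of the arrays. Gene models of mm9 were not used here, so the exon under each probe is not stated. Under normexp and quantile normalization the members differed by -1.02 and 0.65, and without WT replicate 1 the higher one had 0.97.

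Other probes of the members' genes bore on 24 genes, of which 10 had kept probes outside the rule. Of these 14 probes, 7 differed in the direction of the member. The probe of Zfp945 (0.54) is not among the 7, although that gene has members in both directions and so no single direction to match. 4930523C07Rik had 3 kept probes outside the rule, between -0.25 and -0.13, beside a dim member at 1.02. E230016M11Rik had 1 at 0.05 beside a member that was not well above background in WT. For 6 genes 2 or more probes met the rule, and in 5 of them (Pinlyp, Upk3bl, Cemip, Mtcl1 and Parpbp) all of these pointed the same way.

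**Figure D4:**
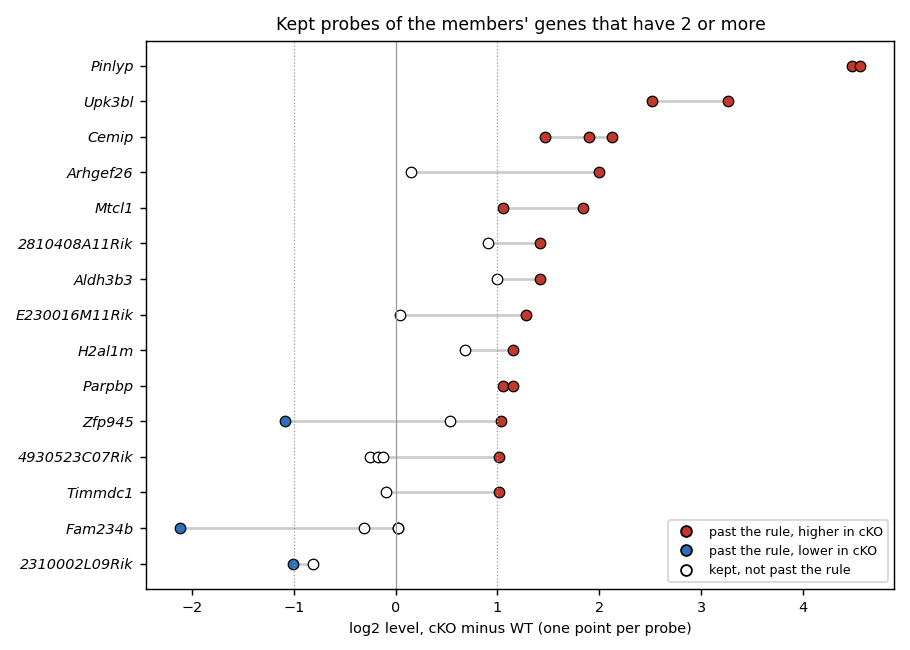
Log2 level in cKO minus WT (x axis) of each kept probe for the genes with at least 2 kept probes (y axis). Red and blue points met the rule upward and downward and open points did not; Zfp945 spans -1.09 to 1.03, and the pair of Pinlyp probes lies at 4.48 and 4.56.

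Of the members, 52 lay under 1.5 log2 units, 24 reached 2, 10 reached 4 and 3 reached 8. Well above background on all 4 arrays were 41 members, 26 higher and 15 lower. With that stricter filter the shares that met the rule were 1.63% and 0.938% of RIKEN-named probes and 1.52% and 0.795% of all probes.

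The members were dim as a set, with a median scaled log2 level of -4.11 against -1.85 for all kept RIKEN-named probes. Their median duplicate gap was 0.28 log2 units against 0.09. In 64 of 84 members with duplicates in both groups, the closest cKO and WT arrays were further apart than either pair of duplicates. This did not hold for 10 higher and 10 lower members, among them Cracd, Arhgef26, E330013P08Rik and Fam234b. The rule itself favours wide gaps between the groups, since it allowed no overlap. Among all kept RIKEN-named probes the same condition held for 952 and did not hold for 803. Just inside the limit lay 2010110K18Rik (1.01), Timmdc1 (1.02) and 4930523C07Rik (1.02), and on the lower side 2310002L09Rik (-1.01), D330050I16Rik (-1.05) and 1700092C17Rik (-1.05). Single arrays decide some of these: without WT replicate 1, 2010110K18Rik had 0.59 and 1700092C17Rik -0.21, and without cKO replicate 1, 4930523C07Rik had 0.80.

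Just outside it lay Cip2a (0.99), the second Aldh3b3 probe (0.99) and 4833419E13Rik (0.98), and on the lower side 9430047G12Rik (-0.95), E130309D02Rik (-0.91) and Ocstamp (-0.91). A further 6 RIKEN-named probes were past the fold but had overlapping arrays. The limit thus cuts through a continuous range of differences.

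**Figure D5:**
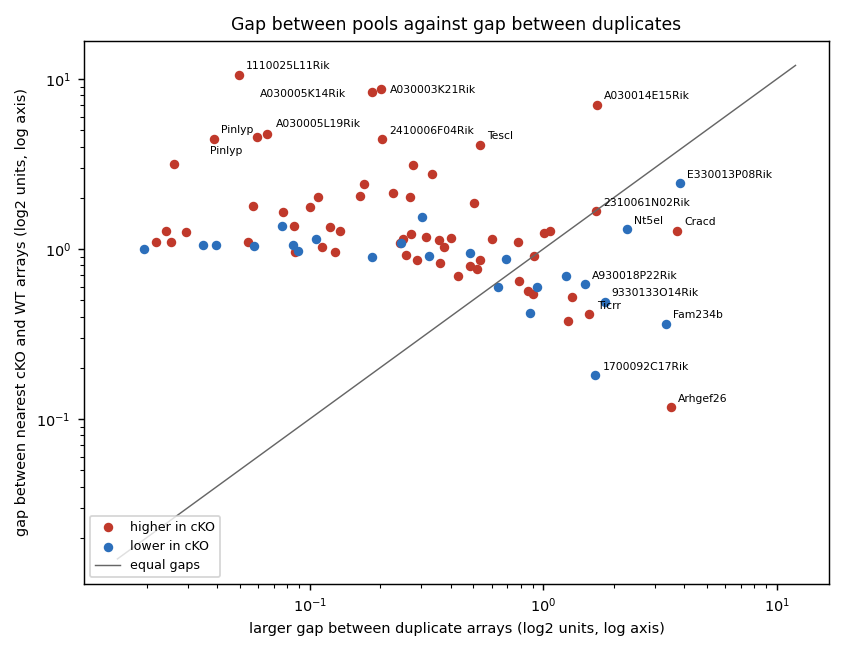
Distance of the closest cKO array from the closest WT array (y axis, log2 units on a log axis) against the larger gap between duplicate arrays (x axis, same scale) for 84 members. Red points were higher and blue points lower in cKO. The rule allowed no overlap of the groups. Above the line of equal gaps lie 64 points, and Cracd, Arhgef26 and Fam234b lie below it.

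By current annotation, 70 of the 85 probes matched the RefSeq table. Of the 63 gene names matched, 35 now have another symbol and 28 keep the RIKEN name. The higher members held 41 protein-coding and 6 lncRNA probes of 60 (68.3% and 10.0%), and the lower members 12 and 9 of 25 (48.0% and 36.0%). Among all kept RIKEN-named probes the shares were 68.3% and 16.3%.

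The prefix of a RIKEN name records the cDNA library of the clone. Of the 54 higher gene names, 6 (11.1%) came from neonatal skin libraries, 4 of them the A030 clones of chromosome 1 and the other two Arhgef26 and 4633401B06Rik. None of 24 lower names with a known library did, and 2.02% of all kept names did. The A030 genes form a cluster, and Arhgef26 (0.24) and 4633401B06Rik (0.57) missed the rule without cKO replicate 1. Testis libraries gave 27.8% of higher, 25.0% of lower and 19.4% of all kept names. By chromosome, 7 of 77 kept RIKEN-named probes on chromosome 1 were higher members and 8 of 125 on chromosome 7, against 3.42% of all kept RIKEN-named probes. Chromosome 7 did not stand out, with 5 of 74 on chromosome 17, 3 of 52 on the X chromosome and 2 of 36 on chromosome 18. Those on chromosome 7 included both Pinlyp probes and the 3 Cemip probes, so they are not separate genes.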

How the data were processed

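RNA of 4 arrays (2 per pool) was labelled with Cy3 from 200 ng, per the labels. Per the file headers, the authors' scanner files hold spot intensity from Agilent Feature Extraction 10.7.3.1, background-subtracted and detrended within each array. The authors' deposited value table is a linear ratio of that intensity to 1 number per array, found by setting it against the scanner values; its columns were not centred per gene. All arrays lay on 1 slide. Control spots were left out and outlier spots set to missing; log2 intensity minus each array's 75th percentile was averaged over spots of a probe. The precision is limited by the number of arrays. A probe well above background on both arrays of a group was kept.

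No test was run, since the pools are not replicated and the rule used this contrast. A bound ("at least N-fold") sets the brighter mean against a floor in the dim group: on each array the smallest signal still called well above background, or the dim probe's signal where that is larger. Marker genes were taken at their brightest kept probe.

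The members, the 12 marker lists and the motifs were chosen with earlier results of these data known. Members named were the 12 most different per direction on all 4 arrays, the 6 largest bounds, all with a new symbol, several probes or a member neighbour, and those next to the threshold; of the marker lists, the 2 brightest genes were also to be named, but only genes past the rule are given. Others were chosen after their values were seen.

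Names were updated through RefSeq (GRCm38.p6). Probe coordinates are mm9, as in the scanner files. The fold and overlap steps of the selection were tried on simulated data. Every probe there was set well above background, so that filter was not tried. Tools were Python 3.11.15, pandas 2.3.3, numpy 2.4.6, matplotlib 3.10.9, R 4.3.3 and limma 3.58.1 (for normexp, offset 50). Library prefixes were assigned from the clone descriptions when at least 3 clones of a prefix, and 80% of them, named 1 library.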

Additional observations from a re-analysis of the deposited data

How the results depend on the processing

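The 60 higher and 25 lower members were unchanged under median scaling, the authors' value table and with outlier spots kept, and were 63 and 24 under quantile normalization. With normexp and quantile normalization, whose offset of 50 units compresses dim probes, 22 and 8 remained (1.4% and 0.361% of all kept probes, and 79.5% of calls over all probes were higher against 70.9%). Without a filter on dim probes there were 82 and 222 (2.3% and 3.98%), and with all 4 arrays above background 26 and 15 (1.52% and 0.795%). Leaving out each array gave 58 to 127 higher and 24 to 80 lower members (2.79% to 4.54% and 1.24% to 2.84% of all kept probes). Beside normexp, where 71 members moved by more than the spread of duplicates, 9 did so under quantile normalization and 1 with outlier spots kept (4930452A19Rik, -5.21 against -3.75). No member's difference changed sign under an alternative. Leaving out an array could not change the sign, because the rule required groups without overlap. The filters on dim probes do not alter a difference at all. All 11 alternatives were met by 16 members, and 28 members (16 higher, 12 lower) missed the rule without at least 1 array. No paired analysis was possible because each genotype is 1 pool on duplicate arrays and no result comes from a test. The cause of these changes, beyond the offset and the numbers of probes and arrays, was not tested. Dim signals limit 44 members, which were not well above background on all arrays.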
